A study of Mus musculus with 8 samples.

Results

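Every heartbeat begins with a brief rise of calcium inside the cardiomyocyte. Calcium enters through the L-type channel, triggers a larger release from the sarcoplasmic reticulum through the ryanodine receptor, and is then pumped back into that store or exported across the cell surface. In the early embryonic heart, which already beats while its internal store is still maturing, surface entry and sodium-calcium exchange are known to carry a large part of this cycle. The 9 genes described here encode its core: Cacna1c (entry), Ryr2 (release), Casq1 and Casq2 (storage), Atp2a2 and its inhibitor Pln (uptake), Slc8a1 (export), Jph2 (the membrane junction) and Camk2d (a calcium-activated kinase). They were taken by symbol from a table of 52778 features, and all 9 were found once each on a reference chromosome.

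Mouse embryos were collected at embryonic day 11.5, and RNA of the heart ventricles was sequenced. The 4 control libraries are labelled C57BL/6 WT, and the 4 mutant libraries come from embryos homozygous for the Atf4(del7/del7) allele, which lacks 7 bases of exon 3 after CRISPR/Cas9 editing and so shifts the reading frame of Atf4, a stress-induced transcription factor, in all cells of the embryo. No drug was given to either group. The genotype field of the mutants also reads C57BL/6 WT, so the groups rest on the titles and the treatment field, which calls the mutants a global ATF4 knockout. The design text describes 4 biological replicates per genotype and a stranded poly(A) library, whereas the protocol attached to each sample describes cultured cortical neurons and ribosomal RNA depletion. Litter and embryo sex are not stated.

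The labelled tissue was checked against marker genes. The 12 cardiomyocyte markers summed to between 31399 and 32840 TPM in controls and between 30477 and 32604 TPM in mutants, TPM being transcript abundance scaled for transcript length and library size. Of 10 cortical neuron markers, 9 stayed below 1 TPM in all 8 libraries, the exception being Tubb3. A library's listed values added up to 923473 TPM at the lowest and 949762 TPM at the highest. Since TPM does not record read depth, the reads behind a value cannot be counted, and error was taken from the spread between libraries. Each SD is that of 4 libraries, whereas standard errors, intervals and p of the limma fit below also draw on the spread of all genes tested. The Atf4 transcript, whose polyadenylation signal the allele leaves in place, was higher in all 4 mutants than in any control, at 166 ± 15.1 against 112 ± 8.07 TPM (SD, n = 4 each).

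Each of the 9 genes was compared between genotypes within 1 fit over all 15545 genes that reached 1 TPM in at least 4 libraries (limma on log2(TPM + 1), two-sided, Benjamini-Hochberg adjustment over all genes tested). All 9 passed that filter. None had an adjusted p below 0.05, a count of 0 of 9, where 6 of 15545 genes, 0.0386% of those tested, passed. At an unadjusted p below 0.05 the count was 1 of 9, for Casq1, against 6.10% of all genes tested. In none of the 9 did the 4 mutant values lie wholly outside the 4 control values, against 3.68% of all genes tested. The log2 fold changes ran from -0.16 for Casq1 to 0.039 for Slc8a1, with a median of -0.013 and a median of -0.0033 over all genes tested. By sign 4 genes were higher and 5 lower, against 7490 higher and 8055 lower of all genes tested. Summed, the 9 genes held 2263 ± 35.1 TPM in controls against 2238 ± 71.0 TPM in mutants (SD, n = 4 each).

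**Figure D1:**
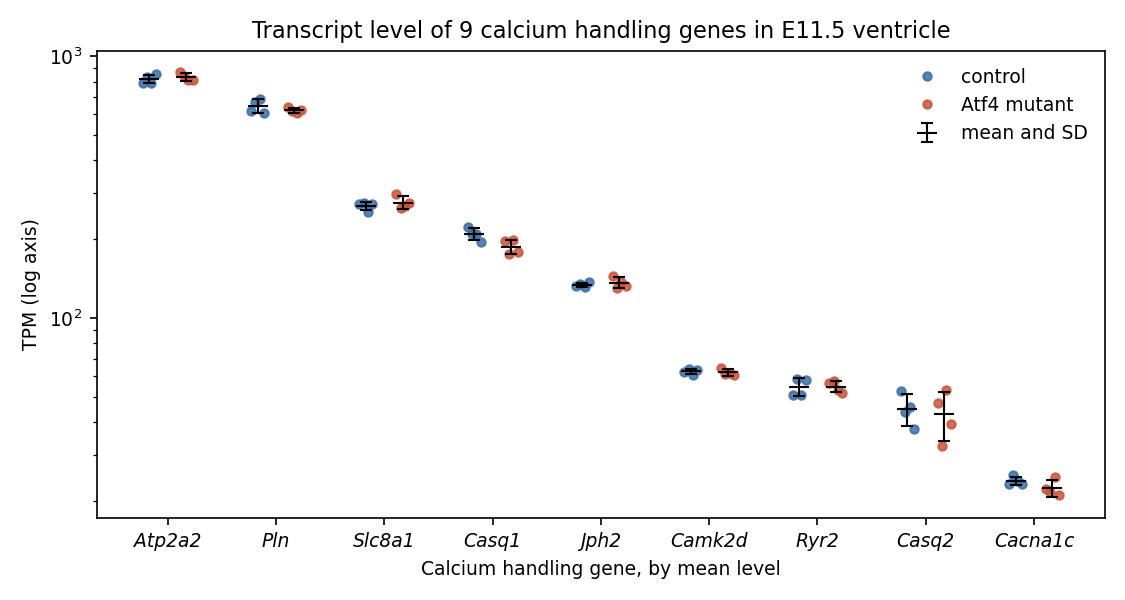
TPM of each gene in every library on a log axis, with controls in blue, Atf4 mutants in red, and bars for the mean and SD of 4 libraries. Levels span a 35.8-fold range from Atp2a2 to Cacna1c, and for each gene the values of the genotypes overlap.

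The levels were first compared among the genes, since TPM is scaled for length. In descending order they were Atp2a2 at a mean of 827 TPM over the 8 libraries, Pln at 634, Slc8a1 at 272, Casq1 at 199, Jph2 at 135, Camk2d at 62.3, Ryr2 at 54.7, Casq2 at 44.1 and Cacna1c at 23.1. Neighbours in this order did not overlap over the 8 libraries, with the exception of Ryr2 and Casq2, where Ryr2 was higher in 6 of 8. The pump Atp2a2 ranked 127th and Pln 179th among all genes tested. The channels that start the cycle stood lower, with Ryr2 at rank 2702 and Cacna1c at rank 6096. Atp2a2 transcripts thus outnumbered those of Cacna1c by 35.8-fold.

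Calcium entry was examined at Cacna1c, which encodes the pore of the main L-type channel of the ventricle. It lies on the minus strand of chromosome 6 between bases 118587240 and 119197384 of GRCm38. The controls held 23.3, 25.1, 23.8 and 23.2 TPM, and the mutants 22.2, 21.6, 24.7 and 21.1 TPM. Of the mutants, 3 lay below the lowest control, and mutant replicate 3 lay within the control range. Its log2 fold change of -0.087 (standard error 0.057, 95% interval from -0.21 to 0.039) did not pass the limma test, at an unadjusted p of 0.154 and an adjusted p of 0.874. The locus shares bases with 7 other listed features, the most abundant of which, Dcp1b, averaged 2.74 TPM, and how shared reads were assigned is not stated.

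Because the mutated gene encodes a transcription factor, the 250 bases upstream of the start sites were searched for the C/EBP-ATF element TGATGNAA, a sequence to which ATF4 is known to bind as a dimer with C/EBP proteins. RefSeq promoters of GRCm38.p6 were matched for 8 of the 9 genes, in 11 entries. Atp2a2 had no entry. A match on either strand was found in 1 entry, at the most downstream of 3 Cacna1c start sites, and 3.45% of all 32851 promoters of this length hold one. It begins 51 bases upstream of that start and reads TTCCATCA on the strand shown, TGATGGAA on the other. The promoter is printed since it is the only one of the 11 with this element (chr6:118757975-118758224, minus strand, 5′ to 3′, the match in capitals).
Cacna1c: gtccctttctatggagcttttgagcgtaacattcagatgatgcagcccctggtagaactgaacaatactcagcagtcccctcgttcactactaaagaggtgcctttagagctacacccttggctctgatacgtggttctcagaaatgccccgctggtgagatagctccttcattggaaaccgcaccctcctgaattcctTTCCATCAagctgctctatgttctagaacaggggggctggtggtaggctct
The match is a description of letters, and no binding was measured in these libraries. Cacna1c was not among the genes that passed the test.

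Release was examined at Ryr2, the cardiac ryanodine receptor (chromosome 13, bases 11553099 to 12106945, minus strand). The controls held 51.1, 58.7, 51.0 and 58.0 TPM, and the mutants 56.7, 57.5, 53.0 and 51.9 TPM. Every mutant value lay inside the control range. The group means were 54.7 ± 4.25 and 54.8 ± 2.71 TPM (SD, n = 4 each), and the log2 fold change was 0.0036 with a 95% interval from -0.13 to 0.14 (adjusted p of 0.998). The sign of so small a difference turned when the libraries were scaled to cardiomyocyte markers, to -0.0074. Ryr2 held 95.9% ± 0.361 of the TPM of the 3 ryanodine receptor genes in the controls and 95.8% ± 0.442 in the mutants. Ryr1, the receptor of skeletal muscle, reached at most 0.154 TPM, and Ryr3 lay between 2.12 and 2.63 TPM.

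Jph2 encodes junctophilin 2, which holds the sarcoplasmic reticulum close to the surface membrane (chromosome 2, bases 163336242 to 163398049, minus strand). Its controls held 133, 135, 131 and 137 TPM and its mutants 145, 131, 138 and 133 TPM. The mutants fell on both sides of the narrow control range, with 1 below and 2 above it. The log2 fold change of 0.025 had a 95% interval from -0.061 to 0.11 (adjusted p of 0.960), and without mutant replicate 1 it was -0.0048. Jph2 held 95.9% ± 1.08 of the TPM of the 4 junctophilin genes in the controls and 96.3% ± 0.281 in the mutants.

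Uptake into the store depends on Atp2a2, the SERCA2 pump, and on Pln, phospholamban, which restrains the pump until it is phosphorylated. Atp2a2 (chromosome 5, bases 122453513 to 122502225, minus strand) held 793, 833, 794 and 858 TPM in controls and 871, 841, 812 and 814 TPM in mutants. Mutant replicate 1 was the highest of the 8, and the other 3 mutants lay among the controls. The log2 fold change was 0.026 (standard error 0.038, 95% interval from -0.060 to 0.11, limma adjusted p of 0.955). Atp2a2 held at least 99.5% of the TPM of the 3 SERCA genes in every library. Atp2a1, the pump of fast skeletal muscle, lay between 0.773 and 1.41 TPM.

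Pln (chromosome 10, bases 53337686 to 53345999, plus strand) held 620, 669, 688 and 605 TPM in controls and 642, 616, 605 and 622 TPM in mutants. The mutants all lay within the control range, whose upper end was set by control replicates 2 and 3. The means were 646 ± 39.5 and 621 ± 15.6 TPM (SD, n = 4 each), with a log2 fold change of -0.053 and a 95% interval from -0.15 to 0.048 (adjusted p of 0.920). Sln, the SERCA inhibitor typical of atrial muscle, did not exceed 0.654 TPM. Pln shares bases with Cep85l on the other strand, which averaged 4.84 TPM.

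Export across the surface was examined at Slc8a1, the cardiac sodium-calcium exchanger NCX1 (chromosome 17, bases 81373105 to 81738387, minus strand). The controls held 272, 276, 255 and 272 TPM, and the mutants 298, 263, 268 and 275 TPM. As for Atp2a2, mutant replicate 1 was the highest of the 8 libraries and the other mutants overlapped the controls. The log2 fold change was 0.039 with a 95% interval from -0.062 to 0.14 (adjusted p of 0.942), and it was 0.0011 without mutant replicate 1. Slc8a1 held between 98.46% and 98.83% of the TPM of the 3 exchanger genes of its family. Slc8a2 lay between 3.23 and 4.19 TPM and Slc8a3 did not exceed 0.0526 TPM.

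Storage inside the reticulum is the task of the calsequestrins, high-capacity calcium-binding proteins. Casq2 is known as the cardiac form and Casq1 as the form of fast skeletal muscle, yet Casq1 was the more abundant of the pair in each of the 8 libraries. Casq1 (chromosome 1, bases 172209894 to 172219895, minus strand) held 224, 209, 210 and 196 TPM in controls and 196, 176, 199 and 179 TPM in mutants. Mutant replicates 2 and 4 lay below every control, while replicates 1 and 3 lay just above the lowest control. The means were 210 ± 11.3 and 188 ± 12.0 TPM (SD, n = 4 each), a difference of -22.0 TPM. The log2 fold change was -0.16 (standard error 0.054, 95% interval from -0.28 to -0.039), with an unadjusted p of 0.0147 and an adjusted p of 0.780. A difference of this size in a single gene therefore did not pass the correction over all genes tested. Leaving out each library in turn moved the log2 fold change between -0.19 and -0.13. The feature Gm17224 overlaps Casq1 on the other strand and averaged 2.45 TPM.

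Casq2 (chromosome 3, bases 102086415 to 102146514, plus strand) held 52.8, 43.8, 45.8 and 37.6 TPM in the controls and 47.4, 32.4, 53.3 and 39.5 TPM in the mutants. Both the lowest and the highest of the 8 values were mutants. It was the most variable of the 9 genes, with a residual SD of 0.26 on the log2 scale, at percentile 88.3 of all genes tested. The log2 fold change of -0.073 accordingly had a wide 95% interval, from -0.41 to 0.26 (adjusted p of 0.971), and without mutant replicate 2 it was 0.054.

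The Casq1 transcript made up 82.4% ± 1.25 of calsequestrin TPM in controls and 81.4% ± 2.35 in mutants (SD, n = 4 each). Since Casq1 is known from skeletal muscle, markers of that tissue were examined. Of 10 skeletal muscle markers, 7 stayed below 1 TPM in all libraries, among them the lineage factors Myod1, Myog, Myf5 and Myf6, and no marker of the list passed the test. The list summed to between 374 and 453 TPM in controls and between 387 and 413 TPM in mutants, nearly all of it Acta1, an actin also known from embryonic heart. Of 6 smooth muscle markers, Myh11 did not exceed 0.361 TPM and was too low to be tested. The other 5 were tested and none passed, with 2 higher and 3 lower by sign and a median log2 fold change of -0.079. Cnn1 had the smallest p of them, at 240 ± 13.6 TPM in controls and 214 ± 8.95 TPM in mutants. Its log2 fold change was -0.16 (limma, unadjusted p of 0.00642 and adjusted p of 0.743). The groups did not overlap for Cnn1, which holds for 3.68% of all genes tested. Acta2 and Smtn had log2 fold changes of 0.10 and 0.097. The 6 markers summed to between 1587 and 1832 TPM in controls and between 1664 and 1782 TPM in mutants. Bulk values do not show which cells made these transcripts. The part of these markers in the Casq1 difference was not tested. In bulk tissue, fewer cells of a type and less RNA per cell cannot be told apart.

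The promoters of both calsequestrin genes are shown because they are paralogs with a 4.24- to 5.22-fold difference in transcript level across the control libraries. The 250 bases before the start are given 5′ to 3′, with matches to the E-box CANNTG, the general binding sequence of helix-loop-helix factors, in capitals (both strands searched, the motif being its own reverse complement in outline). Casq1 is chr1:172219896-172220145 on the minus strand and Casq2 is chr3:102086165-102086414 on the plus strand.
Casq1: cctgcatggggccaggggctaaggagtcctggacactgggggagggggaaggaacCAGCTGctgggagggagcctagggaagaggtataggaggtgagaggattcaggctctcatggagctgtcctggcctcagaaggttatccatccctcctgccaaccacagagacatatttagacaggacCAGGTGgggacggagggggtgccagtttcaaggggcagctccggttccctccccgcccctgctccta
Casq2: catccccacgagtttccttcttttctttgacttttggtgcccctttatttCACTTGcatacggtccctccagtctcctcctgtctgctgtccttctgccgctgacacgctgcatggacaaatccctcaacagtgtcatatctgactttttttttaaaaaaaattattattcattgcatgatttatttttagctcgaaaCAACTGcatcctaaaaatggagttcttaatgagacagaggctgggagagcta
Each promoter holds a pair of E-boxes at similar distances from the start, beginning 195 and 67 bases upstream in Casq1 and 200 and 52 bases upstream in Casq2, with different inner letters. The share of all promoters with such a pair was not counted. An E-box is common, and 66.2% of all promoters of this length hold at least 1. Counted in the same way, 10 of the 11 promoter entries of the set hold an E-box, and these belong to 7 of the 8 genes with an entry. The Jph2 entries overlap and hold the same E-box, so the entries are not all separate promoters.

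Camk2d encodes the delta form of CaMKII, a kinase known to phosphorylate Ryr2 and Pln proteins (chromosome 3, bases 126595487 to 126846326, plus strand). The controls held 62.0, 63.9, 60.9 and 63.5 TPM and the mutants 64.5, 61.1, 61.8 and 60.6 TPM. The mutants reached just past both ends of the control range, with 1 below and 1 above it. Camk2d was the steadiest of the 9 genes, with a residual SD of 0.036 on the log2 scale, at percentile 2.71 of all genes tested. Its log2 fold change of -0.013 had a 95% interval from -0.090 to 0.064 (limma, adjusted p of 0.980). Camk2d was not the most abundant CaMKII gene. It held 29.6% ± 0.821 of the TPM of the 4 CaMKII genes in the controls and 31.2% ± 0.963 in the mutants, while Camk2a, known as a neuronal form whose locus also yields a muscle protein, held 45.0% ± 1.49 and 43.2% ± 3.12 (SD, n = 4 each).

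The level of Camk2a was 95.2 ± 5.81 TPM in controls and 85.9 ± 8.19 TPM in mutants, a difference of -0.15 on the log2 scale (limma, unadjusted p of 0.0635 and adjusted p of 0.840). Of the 10 cortical neuron markers, 9 stayed below 1 TPM in the same libraries, among them Rbfox3, Neurod6, Slc17a7 and Snap25. Tubb3 lay between 7.06 and 11.8 TPM. Markers of other neurons were not examined. The feature Gm46632, which overlaps Camk2a on the same strand, averaged 21.4 TPM. A gene-level value does not show which Camk2a transcript was present. Camk2g, a broadly expressed form, held 51.8 ± 3.02 and 49.2 ± 5.75 TPM, and Camk2b did not exceed 1.89 TPM.

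**Figure D2:**
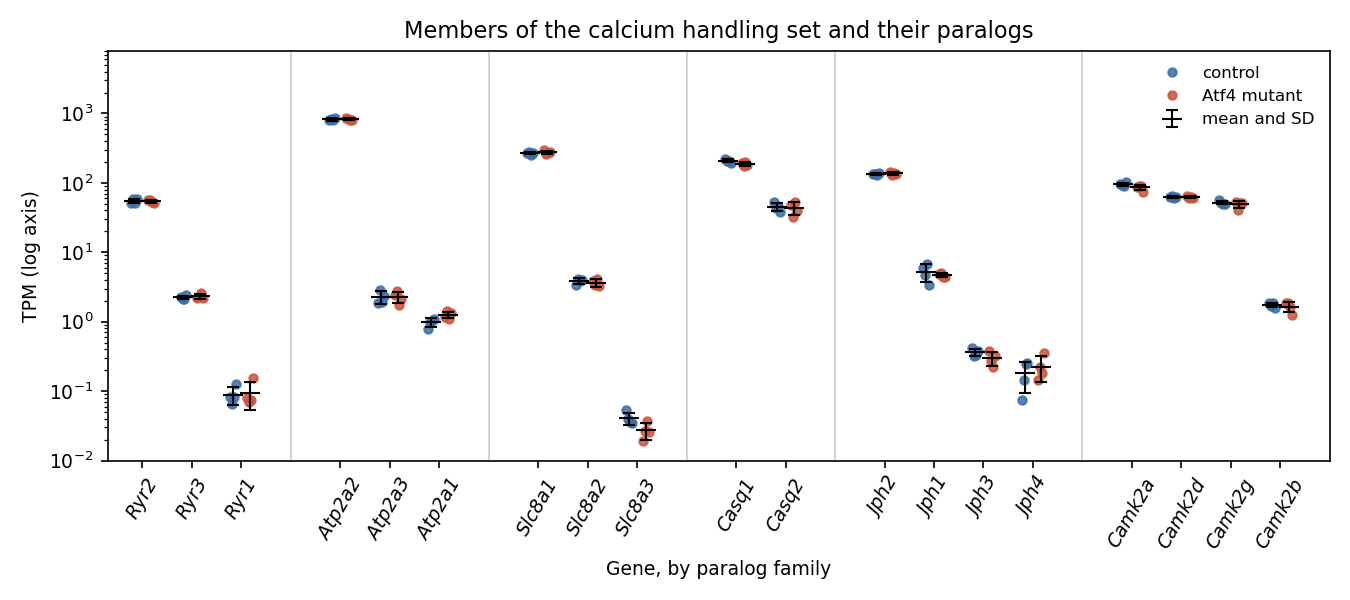
TPM on a log axis for the genes of the set beside their paralogs, in every library, with controls in blue, Atf4 mutants in red, and bars for the mean and SD of 4 libraries. Ryr2, Atp2a2, Slc8a1 and Jph2 each stand far above their paralogs, Casq1 stands above Casq2, and Camk2a, Camk2d and Camk2g lie between 40.7 and 102.8 TPM.

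The sizes of the differences were then set side by side. The 95% interval of the log2 fold change spanned 0 in 8 of the 9 genes and lay below 0 for Casq1, before correction for the number of genes. For Atp2a2, Jph2 and Camk2d the interval stayed within 0.12 of no change. For these genes the fit bounded the difference most tightly. For Casq2 the interval covered changes of up to 0.41 in size. A p above the threshold does not show that the genotypes were alike for that gene.

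**Figure D3:**
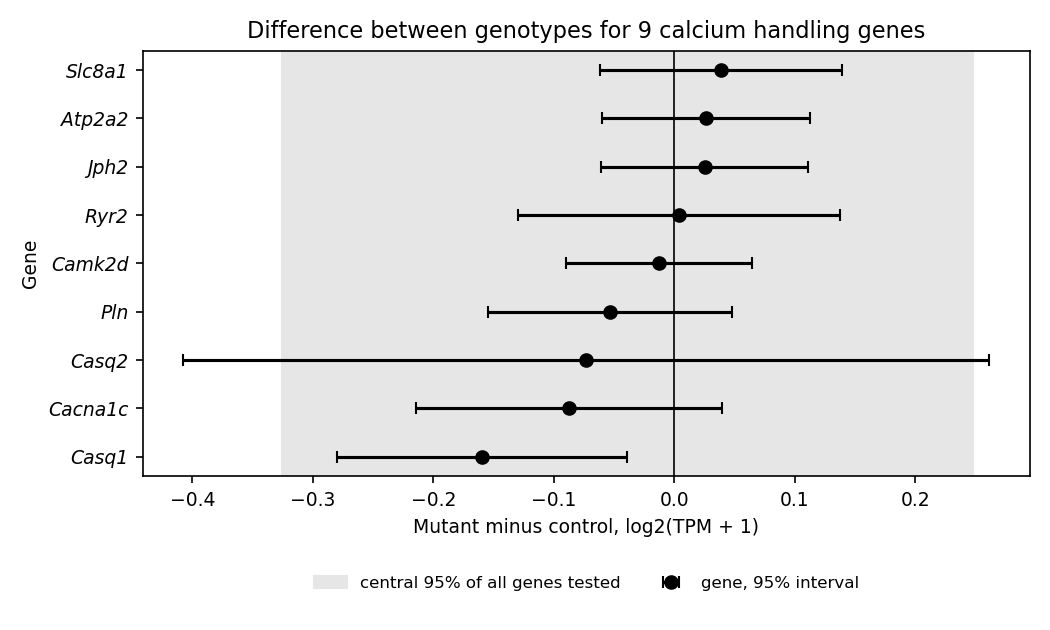
Difference between genotypes on the log2(TPM + 1) scale for each gene, with the limma 95% interval as a bar. The grey band holds the central 95% of the fold changes of all 15545 genes, from -0.33 to 0.25, and all 9 estimates lie inside it.

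Pairs of genes that act against or upon each other were compared as ratios of TPM within each library, 4 ratios in all, by exact two-sided permutation over the 70 assignments of the libraries, for which the smallest possible p is 0.0286. The ratio of Pln to Atp2a2, inhibitor to pump, was 0.782, 0.803, 0.867 and 0.705 in the controls and 0.737, 0.733, 0.745 and 0.764 in the mutants. The mutants clustered inside the control range, and the difference of -0.080 ± 0.063 (SE) on the log2 scale had an exact permutation p of 0.257 (0.629 adjusted over the 4 ratios). Its size rested on single controls, being -0.033 without control replicate 3 and -0.13 without control replicate 4. The ratio of Slc8a1 to Atp2a2, export to uptake, was 0.328 ± 0.0116 in controls against 0.331 ± 0.0131 in mutants (SD, n = 4 each), with an exact permutation p of 0.800, adjusted 0.800. It ranged only from 0.312 to 0.343 over the 8 libraries, the tightest of the 4 ratios in these data.

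The ratio of Casq1 to Casq2 was 4.24, 4.76, 4.58 and 5.22 in the controls and 4.14, 5.43, 3.74 and 4.53 in the mutants. The mutants spread on both sides of the controls, and the exact permutation p was 0.543 (0.724 adjusted). Leaving out mutant replicate 3 took the log2 difference from -0.086 to -0.0052, and leaving out mutant replicate 2 took it to -0.18. The ratio of Cacna1c to Ryr2, entry to release, was 0.437 ± 0.0300 in controls against 0.410 ± 0.0392 in mutants (SD, n = 4 each). Of the mutants 2 lay below every control, and the exact permutation p was 0.314 (0.629 adjusted). Without mutant replicate 3 its log2 difference moved from -0.095 to -0.16, and without mutant replicate 2 to -0.056.

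**Figure D4:**
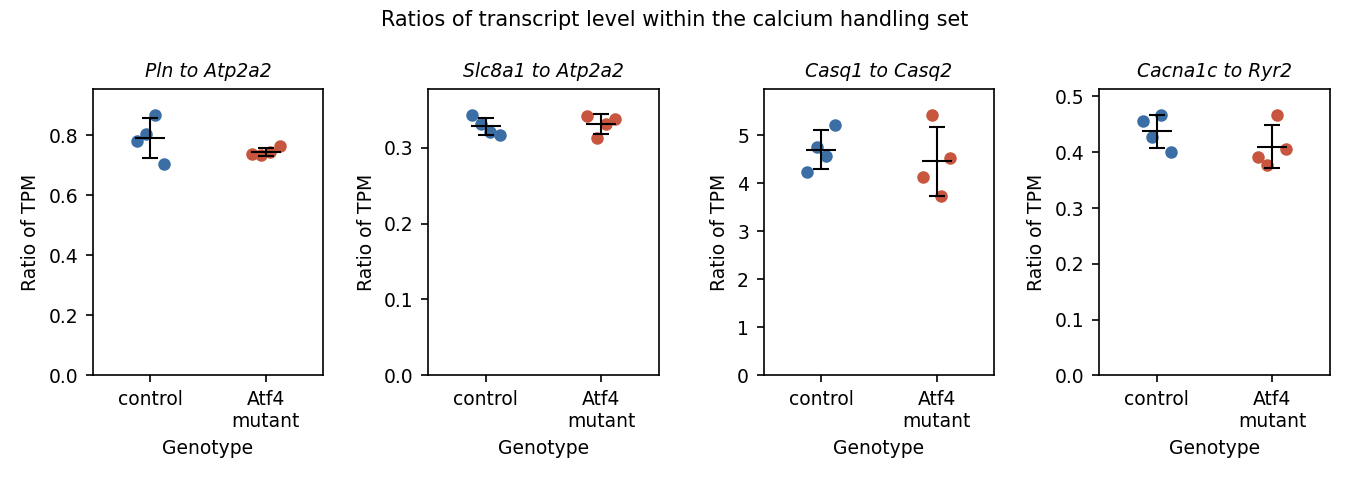
Ratio of TPM of the named genes in every library, 1 panel per ratio with its own axis from 0, with controls in blue, Atf4 mutants in red, and bars for the mean and SD of 4 libraries. The genotypes overlap in each panel, and the Pln to Atp2a2 ratio runs from 0.705 to 0.867 in the controls.

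The genes of the set were set beside 77 other calcium handling genes, listed by role from general knowledge. Of these, 65 were expressed enough to be tested and 12 were not. None passed at an adjusted p below 0.05 (limma, 0 of 65, against 0.0386% of all genes tested), and 0 of 65 had an unadjusted p below 0.05, against 6.10% of all genes tested. By sign 37 were higher and 28 lower, against 7490 higher and 8055 lower of all genes tested, with a median log2 fold change of 0.020. The groups did not overlap in 1 of the 65, Cacna1g, against 3.68% of all genes tested.

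Among the channel subunits of calcium entry, 8 of 10 were tested. Cacna1g, a T-type channel gene, had the smallest p of the group, at 1.63 ± 0.250 against 1.26 ± 0.0829 TPM (-0.22 on the log2 scale, unadjusted p of 0.0632 and adjusted p of 0.840). Cacna1h, another T-type gene, was far more abundant at 44.8 ± 2.86 and 46.3 ± 3.85 TPM, and stood above Cacna1c in all libraries (it is named after its values were seen). Cacna2d2, an auxiliary subunit, was the most abundant of the group at 63.1 ± 8.89 and 66.4 ± 5.27 TPM (adjusted p of 0.942). The L-type paralogs were low, with Cacna1s at up to 0.909 TPM and Cacna1d between 4.31 and 9.28 TPM.

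Among 13 release channel genes and partners, 12 were tested. Srl, which encodes sarcalumenin of the reticulum lumen, held 324 ± 17.2 and 349 ± 24.1 TPM (0.11 on the log2 scale, unadjusted p of 0.0861 and adjusted p of 0.841). Fkbp1a, for a small protein that binds ryanodine receptors, was the most abundant at 496 ± 21.0 and 510 ± 19.2 TPM (adjusted p of 0.929). The junctional genes Bin1 and Cav3, both tied to the later transverse tubules, had log2 fold changes of -0.072 and 0.037 (adjusted p of 0.929 and 0.970). Cav3 held 77.2 ± 4.86 and 79.4 ± 8.06 TPM, and Jph1 held 5.20 ± 1.49 and 4.68 ± 0.326 TPM.

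Among the uptake and export genes, Calr, for the calcium-binding chaperone calreticulin, was the most abundant, at 836 ± 44.3 and 857 ± 27.0 TPM (adjusted p of 0.943). That is close to the level of Atp2a2. Atp2a1, at about 1 TPM, differed by 0.19 on the log2 scale (unadjusted p of 0.107 and adjusted p of 0.854). Atp2a3 differed by 0.0041 (adjusted p of 0.998), which turned to -0.0069 when libraries were scaled to cardiomyocyte markers. Atp2b4, a plasma membrane calcium pump, held 56.5 ± 3.40 and 61.6 ± 4.54 TPM (0.12 on the log2 scale, unadjusted p of 0.0717 and adjusted p of 0.841). Slc8a1 stood above Atp2b4 in every library.

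The 5 genes of store-operated entry had log2 fold changes from -0.12 to 0.066, with Orai1, a surface channel opened by store depletion, at 15.5 ± 1.24 and 14.5 ± 1.24 TPM (adjusted p of 0.911). Among 9 genes of mitochondrial calcium uptake the median was 0.0031. Smdt1, an essential small subunit of the mitochondrial uniporter, held 191 ± 4.99 and 192 ± 12.3 TPM, and Mcur1, a uniporter regulator, differed by 0.075 on the log2 scale (adjusted p of 0.896). Among 23 signalling genes 22 were tested, and Calm2, 1 of 3 calmodulin genes, was the most abundant at 374 ± 8.74 and 380 ± 18.8 TPM (adjusted p of 0.970). Camk2a had the smallest p of that group, as given above.

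**Figure D5:**
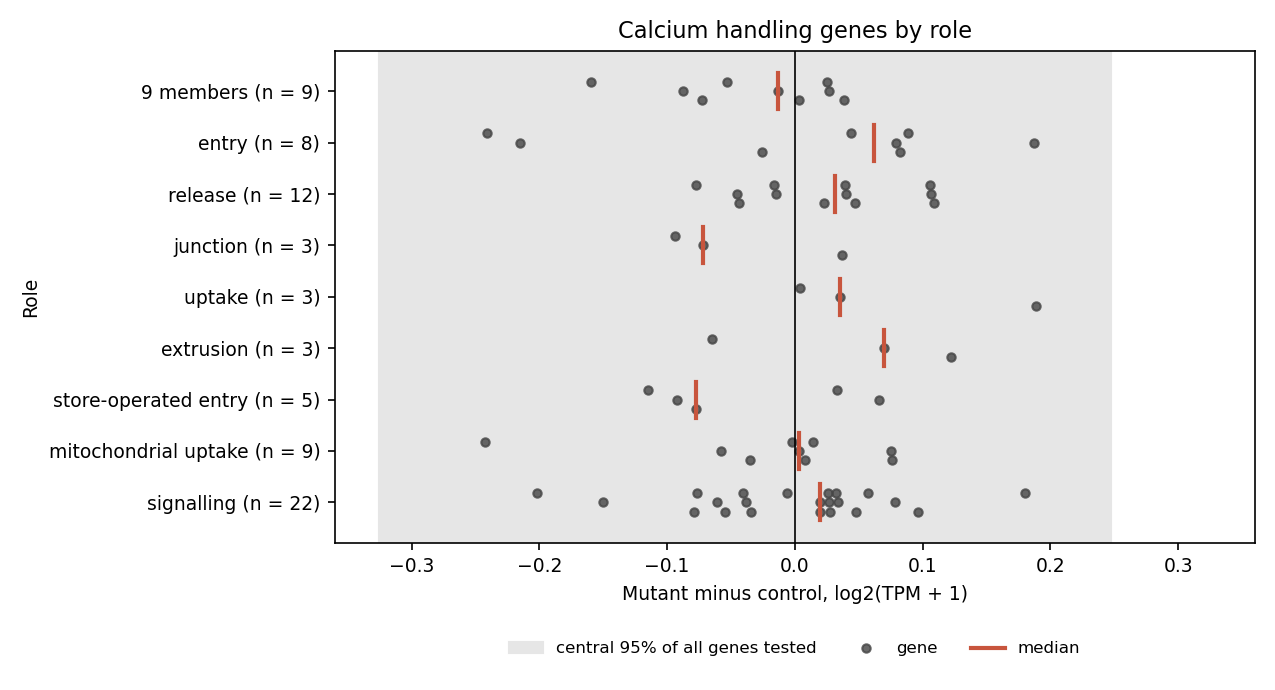
Difference between genotypes on the log2(TPM + 1) scale for the 9 genes of the set and the 65 other calcium handling genes tested, 1 point per gene, with the median of each role as a red line. The medians lie between -0.077 and 0.070, and each point lies inside the grey band that holds the central 95% of all genes tested.

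Other cell types and chamber markers were read beside these results. The mean log2(TPM + 1) of the 12 cardiomyocyte markers differed by 0.011 between genotypes, and 8 endocardial and endothelial markers by 0.0085. The 5 ventricular markers differed by 0.069 (2 higher and 3 lower by sign) and the 6 epicardial markers by -0.073 (2 higher and 4 lower). The median log2 fold change of the 5 ventricular markers was -0.033. The largest was 0.34 for Irx4, whose mutants ran from 34.9 to 68.2 TPM. Of 5 genes listed as atrial markers 4 were tested and none passed, with 3 higher and 1 lower by sign. Their mean log2(TPM + 1) over all 5 differed by 0.075. These genes need not be confined to the atrium at this stage. Sln, at no more than 0.654 TPM, was too low to be tested. Bmp10, with the smallest p, held 109 ± 2.09 TPM in controls and 129 ± 10.2 TPM in mutants (limma, adjusted p of 0.549). Its groups did not overlap, which holds for 3.68% of all genes tested. Myl7 held 3312 ± 143 TPM in controls and 3646 ± 180 TPM in mutants (adjusted p of 0.783), and Nr2f2, the lower one, had a log2 fold change of -0.050. The 5 genes summed to between 3336 and 3615 TPM in controls and between 3622 and 4005 TPM in mutants, nearly all of it Myl7. Their part in the results was not tested. Macrophage markers summed to between 13.5 and 21.5 TPM in the controls and between 8.23 and 12.9 TPM in the mutants, and erythroid markers to between 3984 and 6760 and between 3726 and 5239 TPM. By sign all 5 macrophage genes tested and 6 of 7 erythroid genes were lower, and none of them passed. Of all 15545 genes tested, 8055 were lower by sign. The groups did not overlap in 2 of the macrophage genes, against 3.68% of all genes tested. With the cardiomyocyte marker mean as a covariate, Casq1 kept its unadjusted p below 0.05, and the lowest adjusted p among the 9 genes was 0.800.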

How the data were processed

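The authors deposited TPM per gene in a single table that holds all 8 libraries. The submitters' processing notes name FastQC, Trim Galore 0.6.7, HISAT2 2.2.1, StringTie 2.2.1, featureCounts and DESeq2 without roles, and the builds GRCm38 and mm10. Annotation, strand setting and the handling of shared reads are not given in the sources used here. Start and end were identical for 49590 of the 49593 features whose symbol and chromosome matched a RefSeq gene (GRCm38.p6).

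Groups and replicate numbers came from the sample titles. Genes that reached 1 TPM in 4 or more libraries were fitted as log2(TPM + 1) in limma 3.58.1 (R 4.3.3) with a variance trend, no covariate, and two-sided Benjamini-Hochberg adjustment over all genes at 0.05. The fit was tested on simulated data. Fold changes understate the change of genes with low values. Ratios of TPM were tested by exact permutation (Python 3.11.15, scipy 1.17.1).

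The 9 genes and the lists were chosen with earlier results of these data known. Beside the 9 genes and Atf4, the text names, in each role, the gene with the smallest p, the most abundant gene and paralogs of the 9. Cep85l, Gm17224, Gm46632 and Dcp1b are named as overlapping features. Other genes were named after their values were seen.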

Additional observations from a re-analysis of the deposited data

Results flagged for a closer look

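Over the named genes and ratios, 68 groups of 4 were examined for a library far from the other 3, and 6 were found. Chance gives about 1 in 20, or 3.4, and the groups share libraries. None of the 9 core genes and none of the 4 ratios was among them. Control replicate 3 had 2.00 TPM of Cacna1g, above the 1.47 to 1.52 TPM of the remaining controls. Control replicate 4 had 69.9 TPM of Cav3, below the 79.0 to 80.1 TPM of the rest. Mutant replicate 2 had 40.7 TPM of Camk2g, below 51.6 to 53.0 TPM. Mutant replicate 1 had 538 TPM of Fkbp1a, above 498 to 504 TPM, and 210.4 TPM of Smdt1, above 184 to 188 TPM. It also had 9.28 TPM of Cacna1d, above 4.39 to 4.69 TPM, so that the log2 difference of Cacna1d between genotypes was 0.19 with this library and -0.034 without it. Mutant replicate 1 was in addition the highest of the 8 libraries for Atp2a2, Slc8a1, Jph2 and Camk2d.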

How the results depend on the processing

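None of the 9 genes and none of the other calcium handling genes passed at an adjusted p below 0.05 in any of the 18 alternatives, 1 of which, scaling to cardiomyocyte markers, was chosen after the data were seen. Casq1 kept its direction and an unadjusted p below 0.05 in all 18, with an adjusted p of at least 0.626. Atp2a2, Pln, Slc8a1, Cacna1c and Camk2d also kept their sign. Over all genes, the 6 calls became 0 with no filter, 0 with no variance trend, 0 with the replicate block and 2 with the cardiomyocyte covariate, and from 0 to 3 when 1 library was left out. The deviations of same-numbered libraries had correlations from -0.082 to 0.035, and those of differently numbered libraries from -0.0535 to 0.0572. Whether same-numbered embryos shared a litter was not tested. With the replicate block the differences of the ratios were as without it, and the Pln to Atp2a2 ratio had an exact sign-flip p of 0.375, where 4 pairs allow no p below 0.125. Signs turned for differences near 0. The ratio of Slc8a1 to Atp2a2 moved from 0.012 to -0.00098 with quantile normalization and between -0.0044 and 0.039 with 1 library left out. Ryr2 was -0.0015 and Smdt1 -0.0021 after rescaling that left out haemoglobin and mitochondrially encoded genes, and Smdt1 was -0.0044 with quantile normalization. With the cardiomyocyte covariate Ryr2 was -0.0050, Smdt1 -0.0038 and Atp2a3 -0.0025, and scaled to those markers -0.0074, -0.0079 and -0.0069. With 1 library left out the log2 fold change ran from -0.028 to 0.038 for Ryr2, -0.18 to 0.054 for Casq2, -0.0048 to 0.046 for Jph2, -0.023 to 0.094 for Cav3, -0.041 to 0.023 for Smdt1, -0.015 to 0.036 for Calm2, -0.0023 to 0.065 for Ryr3, -0.070 to 0.092 for Atp2a3, -0.25 to 0.023 for Jph1, -0.098 to 0.013 for Camk2b, -0.12 to 0.0085 for Camk2g and -0.034 to 0.28 for Cacna1d. Read depth is unknown, so no detection floor is given.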

Other observations

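Casq2, the most variable of the 9 genes, was read beside Nppa, the gene for atrial natriuretic peptide and a marker of trabecular ventricle and atrium, chosen after the values were seen. In the controls Casq2 was highest in replicate 1 (52.8 TPM) and lowest in replicate 4 (37.6 TPM), and Nppa was likewise highest in replicate 1 (3272 TPM) and lowest in replicate 4 (2283 TPM). In the mutants both were highest in replicate 3, at 53.3 and 3762 TPM, and lowest in replicate 2, at 32.4 and 2666 TPM. No other gene of the ventricular and atrial lists shared all of these extremes. Gja5 was also lowest in control replicate 4 (121 TPM) but highest in control replicate 3 (153 TPM). In the mutants Gja5 was highest in replicate 4 (147 TPM) and lowest in replicate 1 (127 TPM). Myl7 was also highest in control replicate 1 (3475 TPM), but among mutants highest in replicate 2 (3849 TPM) and lowest in replicate 3 (3441 TPM). Libraries were not grouped by these values and the relation of Casq2 to Nppa was not tested.

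Sln, Mrln and Strit1, the small regulators of the SERCA pump that were listed beside Pln, were near 0 in the ventricle at this stage. Mrln, for myoregulin of skeletal muscle, did not exceed 0.284 TPM. Strit1, for the pump activator DWORF, held up to 1.07 TPM in the controls and was listed at 0 in 1 control and 2 mutant libraries, too low to be tested.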
